A study of Mus musculus with 4 samples.

Results

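The genes described here are 8 enzymes of cholesterol biosynthesis, Hmgcs1, Idi1, Fdps, Fdft1, Sqle, Lss, Cyp51 and Dhcr7, taken by their symbols from the 17778 genes of the mRNA table. They were measured in male C57BL/6 mice (C57BL/6J in the methods of the study), in the mPFC (medial prefrontal cortex), which takes part in mood, decisions and social behavior. The mice of the CUMS group (2 libraries) entered the experiment as juveniles at postnatal day 21 and, after a period of adaptation, went through 3 weeks of chronic unpredictable mild stress (CUMS) with changing stressors, such as isolation, restraint, a tilted cage and disturbed light. Only stressed mice that had become depression-like in all of the behavior tests were used, about 30% of those stressed, so that the group stands for vulnerable mice and not for stress as such. The mice of the control group (2 libraries) passed the same adaptation and were left unstressed, and tissue was taken 24 hours after the behavior tests. RNA was isolated mouse by mouse, and whether a library held the RNA of 1 mouse was not stated. The table holds 1 mean per gene and group, in RPKM (reads divided by gene length and by library size), so that no value of a single library can be shown and no difference can be set against the spread between mice.

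Neurons and glia make nearly all cholesterol of the brain themselves, because lipoproteins of the blood do not pass the blood-brain barrier. Synthesis starts from acetyl-CoA, runs over mevalonate to the building block isopentenyl diphosphate, joins these blocks to farnesyl diphosphate and squalene, and closes the chain to lanosterol, which is trimmed to cholesterol. Most of the genes are switched on together by the transcription factor SREBP-2 when membranes run low in sterols, and the product goes into myelin, cell membranes and synapses. Oligodendrocytes use much of it during myelination, and astrocytes supply neurons.

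All 8 enzymes were well expressed, and 7 of 8 had a higher mean in CUMS than in control. Hmgcs1 differed most, from 57.985 to 78.92 RPKM, which is 1.36-fold, and Sqle followed with 1.23-fold. Fdft1, Fdps and Idi1 were 1.13-fold to 1.14-fold higher. Lss and Cyp51 were nearly equal in both groups, and Dhcr7 had a lower mean in CUMS. The median log2 ratio of CUMS over control was 0.18 over the 8 enzymes, against -0.01 over the 9397 genes that reached 5 RPKM in 1 group or both. Of these 9397 genes, 47.6% were higher in CUMS. Summed over the 8 enzymes, the level went from 238.87 RPKM in control to 280.46 RPKM in CUMS, and Hmgcs1 alone made up 50.3% of the difference between the sums. Without Hmgcs1 the median log2 ratio of the remaining 7 enzymes was 0.175.

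Sequences upstream of 3 of these genes are printed here because they span the range of the ratios, with Hmgcs1 highest, Cyp51 near 0 and Dhcr7 lowest. They come from RefSeq on GRCm38.p6 and end before the first annotated transcript. Capitals mark letters matching TCACNCCAC, CACCCCAC, CCAAT or GGGCGG, each on either strand. TCACNCCAC and CACCCCAC are forms of the sterol regulatory element that SREBP binds. CCAAT is read by the factor NF-Y, and GGGCGG is the GC box of Sp1. Other forms of the sterol regulatory element were not searched for, so lower case does not show that a sequence lacks one.
Hmgcs1, chr13:119690101-119690350, plus strand: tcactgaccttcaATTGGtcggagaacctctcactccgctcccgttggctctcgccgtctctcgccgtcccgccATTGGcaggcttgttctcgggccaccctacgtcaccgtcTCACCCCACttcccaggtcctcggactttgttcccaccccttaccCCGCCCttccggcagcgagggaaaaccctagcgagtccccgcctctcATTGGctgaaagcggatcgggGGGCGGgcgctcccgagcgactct
Cyp51, chr5:4104748-4104947, minus strand: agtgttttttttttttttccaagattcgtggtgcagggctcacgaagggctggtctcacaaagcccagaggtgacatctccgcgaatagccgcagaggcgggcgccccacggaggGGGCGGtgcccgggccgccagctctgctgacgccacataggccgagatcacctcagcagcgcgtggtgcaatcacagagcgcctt
Dhcr7, chr7:143822917-143823144, plus strand: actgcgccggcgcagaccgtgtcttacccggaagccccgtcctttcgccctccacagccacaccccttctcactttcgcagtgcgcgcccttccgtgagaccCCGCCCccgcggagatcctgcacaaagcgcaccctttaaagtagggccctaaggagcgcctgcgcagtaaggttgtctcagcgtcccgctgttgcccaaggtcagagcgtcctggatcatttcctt

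Windows from 250 bases before to 50 bases after a gene start were found for 5 of the 8 enzymes, 7 windows in all, of which 3 belong to Dhcr7. TCACNCCAC was found in 1 of the 7 windows, that of Hmgcs1, 137 bases before the start, where it overlaps CACCCCAC. Of 32851 windows of the same length over all genes, 1.24% hold TCACNCCAC and 2.87% hold CACCCCAC. CCAAT was found in 5 of the 7 windows, against 37.4% of all windows, and GGGCGG in 6 of the 7, against 35.7%. The window of Hmgcs1 holds CCAAT letters 45, 176 and 237 bases before the start. In Idi1 they lie 14 and 45 bases before it, in Lss 62 bases and in Cyp51 29 bases, the last within the stretch that is not printed. In Dhcr7 they lie 49 and 85 bases before another of its 3 starts, in a window that is not printed either. These matches describe letters, and no binding was measured.

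Hmgcs1 (gene 208715, chromosome 13, 119690351 to 119708260) encodes the synthase that makes hydroxymethylglutaryl-CoA in the cytosol. It had the highest mean of the 8 enzymes in both groups, though in control it could not be told apart from Fdps, and its control mean exceeded that of 85.3% of genes of at least 5 RPKM. About 2847 fragments lay behind the control mean and 3881 behind the CUMS mean, by an estimate from the smallest steps between low RPKM values. The log2 ratio was 0.44, with a 95% interval of 0.37 to 0.51. This interval, like all intervals here, covers counting error only and says nothing of differences between mice. No more than 0.958% of genes of at least 5 RPKM had a higher ratio.

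Idi1 (gene 319554, chromosome 13, 8885606 to 8892396) turns isopentenyl diphosphate into its isomer, which primes chain growth. It had a mean of 12.445 RPKM in control and 14.05 RPKM in CUMS. Its log2 ratio of 0.175 had an interval of 0.0049 to 0.35, which barely excludes equal levels. Fdps (gene 110196, chromosome 3, 89093588 to 89101967) makes farnesyl diphosphate, from which sterols, ubiquinone, dolichol and protein prenyl groups branch. It had 57.265 RPKM in control and 64.935 RPKM in CUMS, a log2 ratio of 0.18 (interval 0.06 to 0.30). Fdft1 (gene 14137, chromosome 14, 63145150 to 63181687), the squalene synthase and first enzyme bound to sterols alone, had 40.595 RPKM in control and 46.3 RPKM in CUMS. Its log2 ratio was 0.19 (interval 0.10 to 0.28). These 3 enzymes, which follow each other in the pathway, thus lay within 0.02 of each other on the log2 scale.

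Sqle (gene 20775, chromosome 15, 59315092 to 59331193), the squalene epoxidase and a point of control in the pathway, had a mean of 27.7 RPKM in control against 34.025 RPKM in CUMS. The log2 ratio was 0.30 (interval 0.18 to 0.41), and 3.84% of genes of at least 5 RPKM had a higher one. Sqle is the sole member whose interval overlapped that of Hmgcs1. Lss (gene 16987, chromosome 10, 76531565 to 76557139), which folds the epoxide into lanosterol, was the lowest of the 8 with 8.125 RPKM in control and 8.505 RPKM in CUMS. It rested on 388 and 406 fragments, and its log2 ratio of 0.07 had an interval of -0.14 to 0.27. Cyp51 (gene 13121, chromosome 5, 4080674 to 4104697), which demethylates lanosterol, had 17.41 RPKM in control and 17.69 RPKM in CUMS, a log2 ratio of 0.02 (interval -0.10 to 0.14). Dhcr7 (gene 13360, chromosome 7, 143823167 to 143848410), which reduces the immediate precursor of cholesterol, had 17.34 RPKM in control and 16.035 RPKM in CUMS, a log2 ratio of -0.11 (interval -0.27 to 0.04). For these last 3 enzymes a difference was not detectable at the estimated depth, but the interval of Dhcr7 lay below 0 if the libraries were 2 times as deep as estimated.

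**Figure D1:**
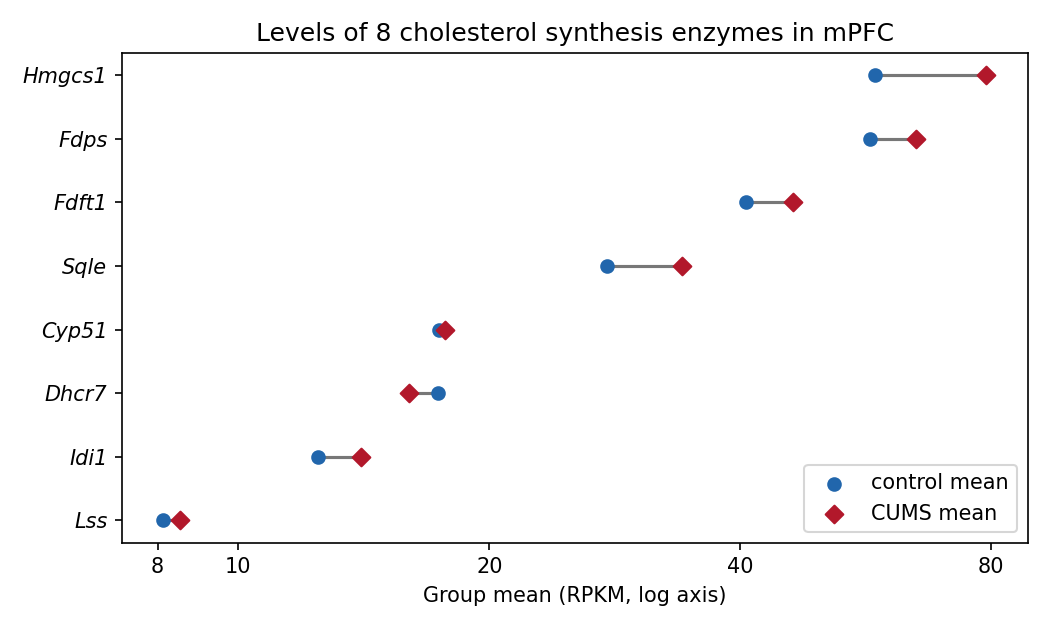
Authors' mean RPKM of the 8 enzymes in control (circles) and CUMS (diamonds) on a log axis, with a line joining the means of a gene. Hmgcs1 has the longest line, from 57.985 to 78.92 RPKM, and Dhcr7 is the one gene whose CUMS mean lies to the left of its control mean.

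The order of levels, compared per gene length, was the same in both groups: Hmgcs1, Fdps, Fdft1, Sqle, Cyp51, Dhcr7, Idi1 and Lss from high to low. In control, Hmgcs1 and Fdps could not be told apart, with a ratio of levels of 1.01 (counting interval 0.944 to 1.09). In CUMS their ratio was 1.22 (1.14 to 1.30). Cyp51 and Dhcr7 were level in control, at a ratio of 1.00 (0.914 to 1.10), and stood at 1.10 (1.00 to 1.21) in CUMS. Dhcr7 exceeded Idi1 1.39-fold in control and 1.14-fold in CUMS. The other neighbours in this order differed by at least 1.36-fold in both groups.

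No member passed a fold of 1.5, the fold used by the study together with a threshold on the probability, which was not applied here. Few genes of like level did: of the 9397 genes of at least 5 RPKM, 30 were higher and 120 lower by more than this. Of the 14257 genes of at least 0.5 RPKM, which include many of lower level, 2.78% were higher by more than this. At a fold of 1.2, Hmgcs1 and Sqle passed, 2 of 8 enzymes, against 5.49% of the 9397 genes of at least 5 RPKM that were higher by as much. The counting interval lay above 0 in 5 of 8 enzymes (Hmgcs1, Sqle, Fdft1, Fdps and Idi1), against 16.0% of the 9397 genes. It lay below 0 in 0 of 8, against 19.4% of the 9397 genes. The enzymes were picked with earlier results of these data known, and with a single mean per group these counts carry no test.

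**Figure D2:**
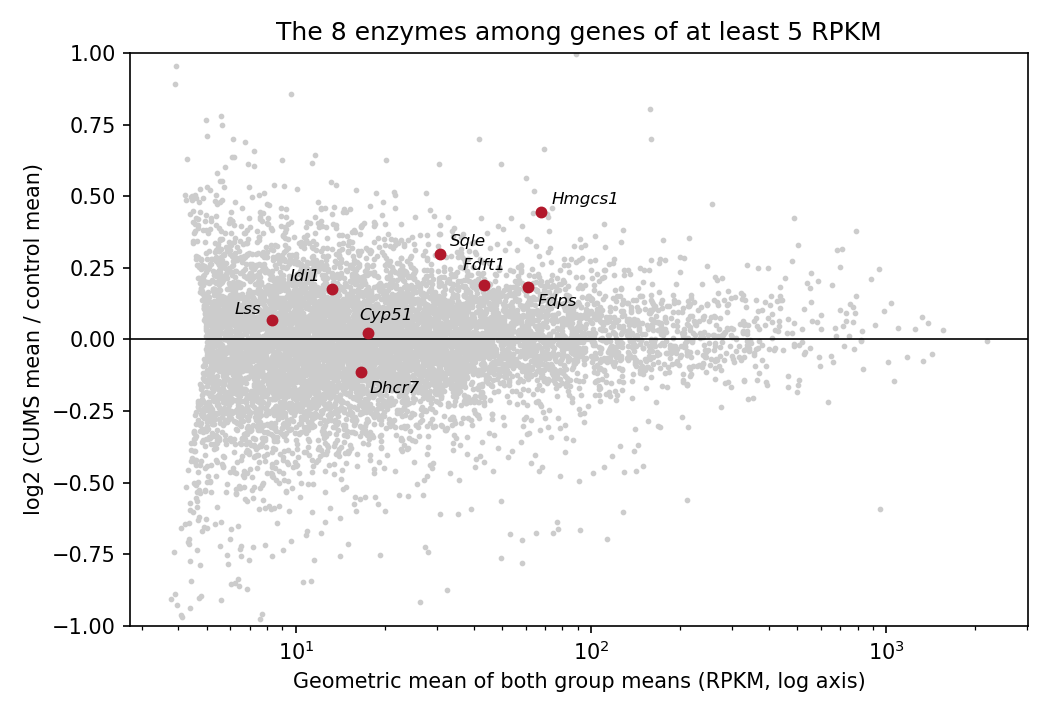
Log2 ratio of CUMS over control against the level (geometric mean of both group means, RPKM, log axis) for 9367 genes of at least 5 RPKM in grey and the 8 enzymes in red; 30 further genes lie outside the axis limits of -1 and 1. Hmgcs1 lies at the upper edge of genes of its level, while Lss, Cyp51 and Dhcr7 lie within the dense part.

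A further 11 enzymes between acetyl-CoA and cholesterol were set beside the members. Of these, 8 were higher in CUMS and 3 were lower, with a median log2 ratio of 0.14, and they summed to 180.85 RPKM in control against 197.96 RPKM in CUMS. The interval lay above 0 in 5 of 11 and below 0 in 0 of 11, against 12.6% and 16.9% of the 14257 genes of at least 0.5 RPKM. Over the 9397 genes of at least 5 RPKM, the background used for the members, these shares were 16.0% and 19.4%. The 5 with an interval above 0 were Tm7sf2, a sterol reductase (0.40), Msmo1, a sterol methyl oxidase listed under its older symbol Sc4mol (0.30), Mvd, which releases isopentenyl diphosphate (0.27), Nsdhl, a sterol dehydrogenase (0.23), and Acat2, the thiolase of the first step (0.14). Ebp, a sterol isomerase, Pmvk, the kinase of phosphomevalonate, and Lbr, a sterol reductase that also anchors chromatin, were lower. Their log2 ratios were -0.24, -0.14 and -0.07, with intervals that held 0. The intervals of Sc5d (0.15), Hsd17b7 (0.06) and Mvk (0.04) held 0 as well.

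Along the pathway, 4 of 5 enzymes up to Mvd were higher in CUMS (median log2 ratio 0.14), as were 3 of 3 from Idi1 to Fdft1 (0.18) and 8 of 11 from Sqle onward (0.07). Members and further enzymes together gave 15 of 19 higher, of which 5 passed a fold of 1.2 and 0 passed 1.5. Of the 14257 genes of at least 0.5 RPKM, 6639 were higher, of which 1477 passed a fold of 1.2 and 396 passed 1.5. Of the 4 lower enzymes, Pmvk acts before Mvd, and Lbr, Ebp and Dhcr7 act on sterols.

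**Figure D3:**
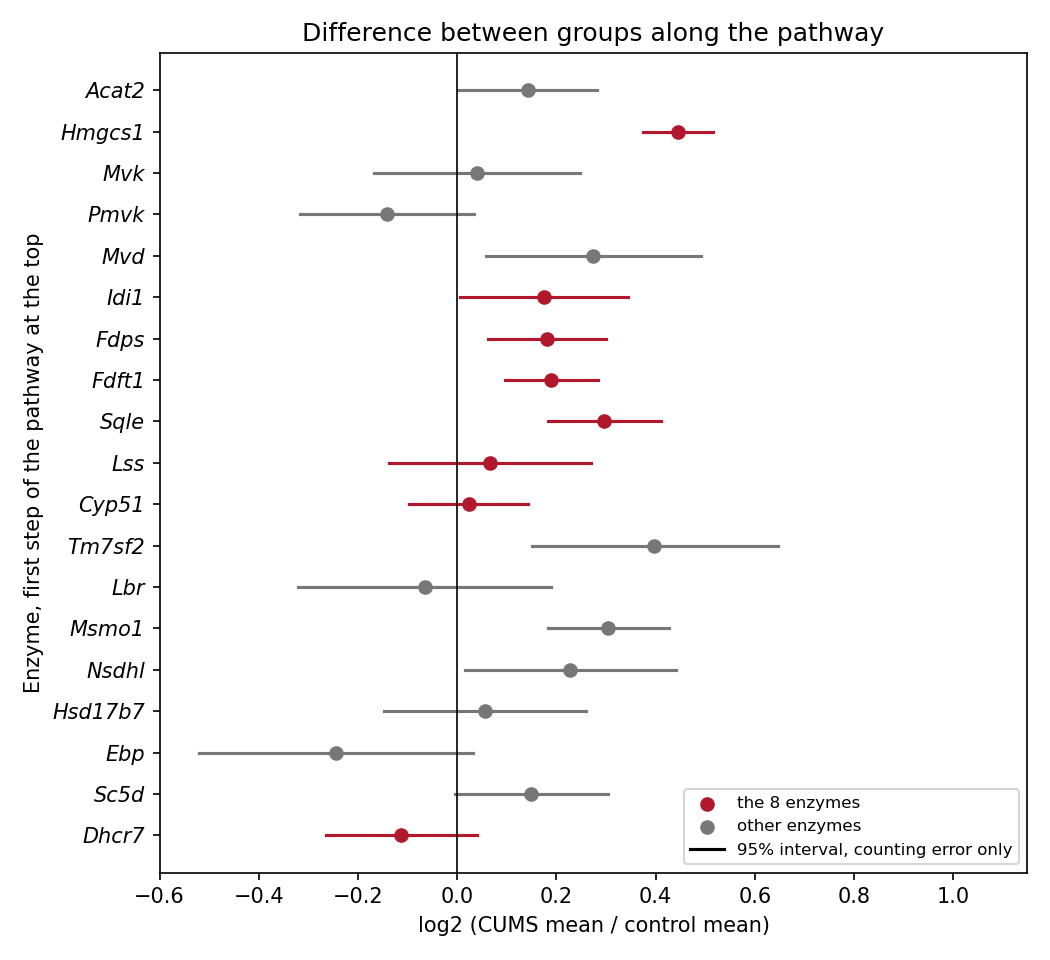
Log2 ratio of CUMS over control for 19 enzymes in the order of the reactions, with 95% intervals of counting error; the 8 enzymes are red and the 11 others grey. Most points lie to the right of 0, Hmgcs1 and Tm7sf2 lie farthest right, and no interval lies wholly to the left of 0.

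The regulators of the pathway were divided. Srebf2, which encodes SREBP-2, had 69.295 RPKM in control and 73.485 RPKM in CUMS, a log2 ratio of 0.08 (interval 0.03 to 0.14). Srebf1, the relative that mainly drives fatty acid genes, had 21.79 RPKM in control and 17.295 RPKM in CUMS, a log2 ratio of -0.33 (interval -0.45 to -0.22). Insig1, which holds SREBP back in the endoplasmic reticulum and is itself a target of it, had a log2 ratio of 0.21 (interval 0.10 to 0.33). The protease gene Mbtps1 had a log2 ratio of -0.11 (interval -0.21 to -0.0058). Scap (-0.01), Insig2 (-0.09) and Mbtps2 (0.19) had intervals that held 0. In all, 3 of 7 regulators were higher and 4 were lower (median log2 ratio -0.01), and Scap and the median turned to higher once the median ratio of all genes was set to 0.

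Other lipid gene lists had medians near or below 0. Of 12 fatty acid synthesis genes, 10 were lower in CUMS, or 9 where a scaling differed (median log2 ratio -0.12), from Scd1, a desaturase (-0.43), to Me1, the malic enzyme (0.26). The interval lay below 0 in 7 of the 12, against 16.9% of the 14257 genes of at least 0.5 RPKM and 19.4% of the 9397 genes of at least 5 RPKM. Of 9 genes of cholesterol uptake and transport within cells, 4 were higher and 5 lower (median -0.02, with a sign that turned under other scalings), from Lipa, the lysosomal lipase (-0.25), to Stard4, a sterol carrier (0.26). Of the 11 genes of efflux, storage and turnover, 10 reached 0.5 RPKM, and 7 of these were lower and 3 higher, or 4 higher where a scaling differed (median -0.06), from Nr1h3 (-0.40) to Cyp27a1 (0.28), which both had intervals holding 0. Of 11 isoprenoid genes that draw on the product of Fdps, 7 were lower and 4 higher, or 5 higher where a scaling differed (median -0.02), from Pggt1b (-0.37) to Pdss2 (0.31), again with intervals holding 0. The same median over all genes of at least 0.5 RPKM was -0.02. Between the extremes, some intervals did exclude 0. The interval lay above 0 in 1 and below 0 in 2 of the 11 isoprenoid genes. In the 10 genes of efflux, storage and turnover these counts were 1 and 2, and in the 9 of uptake and transport 2 and 3. Over the 14257 genes of at least 0.5 RPKM the shares were 12.6% and 16.9%. The differences between these lists and the 8 enzymes were not tested.

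Markers of cell types differed between the groups as well. In bulk tissue, fewer cells of a type and less RNA per cell cannot be told apart. Of 13 markers of mature oligodendrocytes and myelin, 12 were lower in CUMS (median log2 ratio -0.45), and they summed to 1985.5 RPKM in control against 1359.4 RPKM in CUMS. Of 7 genes of oligodendrocyte precursors and lineage, 6 were lower (median -0.30, summed level 150.11 and 120.41 RPKM). Log2 ratios in this list ran from Sox10 (-0.575) to the precursor marker Pdgfra, which was higher (0.09, interval holding 0). Astrocyte markers were higher in 5 of 9 genes, or in 4 under other scalings (median 0.00 with a sign that turned, summed level 1019 and 967.93 RPKM). All 7 markers of cortical excitatory neurons were higher (median 0.33, summed level 1568.9 and 1885.1 RPKM), and so were 5 of 7 general neuron markers (median 0.10, summed level 2002.1 and 2151.4 RPKM). Markers of striatum, which borders on this dissection, were lower in 8 of 8 genes (median -0.27, summed level 531.88 and 438.67 RPKM). Microglia markers were higher in 5 of 7 genes, or in up to 7 under other scalings (median 0.16, summed level 159.38 and 175.75 RPKM), and endothelial markers were higher in 3 of 6 (median -0.05, summed level 72.03 and 57.8 RPKM). No marker was at 0 in either group, and the excitatory neuron markers that define neocortex were all present. The median of the enzymes thus had the sign of those of the excitatory neuron, general neuron and microglia markers. It had the opposite sign to those of the mature oligodendrocyte, precursor and lineage, striatal and endothelial markers. These 4 lists were not lowered alike. The interval lay below 0 in 10 of 13 mature oligodendrocyte, 5 of 7 precursor and lineage, 7 of 8 striatal and 2 of 6 endothelial genes. Over the 14257 genes of at least 0.5 RPKM the share was 16.9%. The part of tissue makeup in the ratios of the enzymes was not tested.

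**Figure D4:**
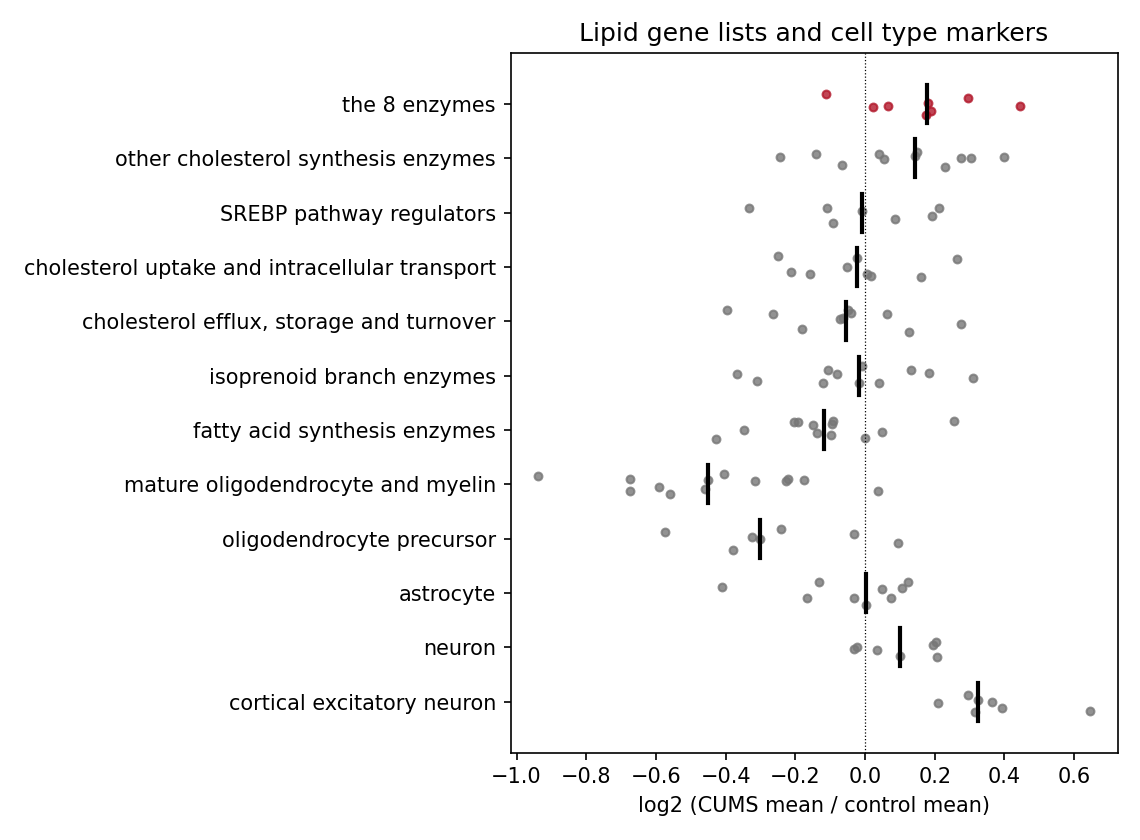
Log2 ratio of CUMS over control for each gene of at least 0.5 RPKM in the lipid gene lists and in markers of 5 cell type lists, with a black bar at the median of each list. The cell type lists are mature oligodendrocytes, their precursors and lineage, astrocytes, neurons and cortical excitatory neurons. Markers of microglia, endothelium and striatum are not plotted. The medians of the 8 enzymes (red, 0.18) and of the 11 other enzymes (0.14) lie to the right of 0, those of fatty acid genes (-0.12) and myelin genes (-0.45) to the left.

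Reads of overlapping genes could have entered these values, since the use of strand was not stated. Sqle and Dhcr7 overlap no other gene of GENCODE M21, and the other 6 members do. Fdft1 shares 774 bases of its span with Ctsb, a lysosomal protease gene on the opposite strand, which had 135.445 RPKM in control and 131.5 RPKM in CUMS, a log2 ratio of -0.04. Cyp51 shares 637 bases with Akap9 (4.045 and 3.53 RPKM). Lss shares 11269 bases with the antisense gene 4930483K19Rik (0.365 and 0.1 RPKM). Fdps shares 7512 bases on its own strand with the gene model Gm43738, Hmgcs1 shares 6190 bases with the antisense model Gm48342, and Idi1 shares 218 bases with the model Gm48574. None of these 3 models has a value here. The values of these 6 enzymes are uncertain to this extent.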

How the data were processed

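mRNA was sequenced from mPFC tissue of control mice (2 libraries) and CUMS mice (2 libraries). Per the study's methods, the authors trimmed paired reads with SolexaQA, aligned them to mm10 with TopHat 1.0.12 and Bowtie 0.11.3, and counted reads that aligned uniquely. The annotation and the use of strand are not given in the sources used here. The authors deposited RPKM values as 1 mean per group, in which 0.01 stands in for 0, together with gene lengths. The table also holds the authors' own log2 ratio, direction and NOISeq probability, which were not used. The methods state that genes under 0.5 RPKM were removed, but the table still lists such genes, and a minimum of 0.5 RPKM in either group was applied here, which left 14257 genes.

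Log2 ratios were computed from the 2 group means without a pseudocount. Fragment numbers were estimated from the fixed step by which a single fragment moves the product of mean and length. Genes under 1000 bases with a product under 350 were used, and steps from 20 to 200 were searched. At the chosen step, 87.9% of 406 control and 87.5% of 392 CUMS values lay within 0.15 of a whole step. Each control library then held 7473842 fragments and each CUMS library 7485030, if libraries of a group were equally deep. These are several times fewer than the reads that the study sequenced and mapped, a gap larger than a factor of 2. The units differ, since a fragment sequenced in a pair gives 2 reads, so the gap counted in fragments is smaller than the gap in reads. The reason for what remains was not resolved, so that a depth 5 times the estimate was tried as well. Intervals are exact Clopper-Pearson 95% intervals. The procedure was tested on simulated data with equally deep libraries, a depth near the estimate and counting error alone. The simulation thus does not bear on the gap in depth or on differences between mice. Gene spans are from RefSeq (GRCm38.p6), matched by gene ID. Python 3.11.15, scipy 1.17.1 and pandas 2.3.3 were used.

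The members and gene lists were chosen with earlier results of these data known. Some genes of the lists are not reported here and were left out of the counts of their lists. Named are all members, other enzymes and regulators, and the highest and lowest gene of each other list. Where a further gene is named (Aldoc, overlapping genes and the genes of the closing observations), it was chosen after its values were seen.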

Additional observations from a re-analysis of the deposited data

How the results depend on the processing

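No paired analysis was possible because each group is given as a mean alone, and for the same reason fits that leave out a replicate were not run. Setting the median log2 ratio of all genes to 0 moved each ratio by 0.02 and an equal total over genes of at least 5 RPKM moved it by -0.01. Under these scalings, under centring within classes of gene length and with a pseudocount of 0.5 RPKM, 7 of 8 members and 8 of 11 other enzymes stayed higher in CUMS. The median log2 ratio of the members ranged from 0.16 (as a mean) to 0.19, and that of the other enzymes from 0.10 (as a mean) to 0.16. Members past the fold numbered 0 at 1.5 and at 2, and 2 at a fold above 1.2. With the estimated fragments multiplied by 2, or by 5 (added after seeing the data), 1 member had an interval below 0 (Dhcr7) and 5 had one above 0. With the fragments divided by 2, 4 had one above 0. The intervals therefore rest on the depth estimate for Dhcr7 and Idi1. Shares over all genes were not computed at the changed depths, so the member counts there have no background beside them. Without a filter on low values, 19.1% of all genes passed a fold of 1.5 in either direction, against 7.20% with it. The counts of higher genes and of intervals above 0 under these settings were added after seeing the data.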

Other observations

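Among genes of sterol handling outside synthesis, chosen after their values were seen, Cyp46a1, which makes the hydroxysterol by which neurons release cholesterol, had 126.81 RPKM in control and 138.485 RPKM in CUMS, a log2 ratio of 0.13 (counting interval 0.07 to 0.19). Apoe, the main carrier of lipids between brain cells, had 1200.84 RPKM in control and 1149.77 RPKM in CUMS, a log2 ratio of -0.06 (-0.09 to -0.04). Abcg1, an exporter of sterols, had a log2 ratio of -0.18 (-0.29 to -0.07), and Npc1, which moves cholesterol out of lysosomes, had -0.21 (-0.32 to -0.10).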
